A study of Gallus gallus with 6 samples.

Results

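Transcripts of alpha-tectorin, beta-tectorin and cochlin, 3 extracellular proteins of the inner ear, were followed along the embryonic cochlear duct of the chicken. The set was named as TECTA, TECTB, OTOG and COCH, and members were found by gene name in the authors' table, where 3 of the 4 names (TECTA, TECTB and COCH) matched among 17684 genes. OTOG, which encodes otogelin, is not analysed here. Ducts were taken at embryonic day 6.5 and cut into a distal, a middle and a proximal piece. Each region has 2 libraries, 1 in a first and 1 in a second set, each made from pieces pooled over ducts, and the size of a pool is not stated in the labels. The distal piece carried part of the future basilar papilla (the hearing epithelium of birds), part of the later tegmentum vasculosum (the secretory roof of the duct), and also the region that forms the lagena, a vestibular-type sense organ at the end of the duct. The middle piece and the proximal piece carried parts of the same papilla and tegmentum without the lagena.

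The tectorial membrane is a sheet of extracellular gel that lies over the hair bundles of the hearing epithelium. Alpha- and beta-tectorin are its main non-collagenous glycoproteins, and both carry a zona pellucida domain, the module by which proteins of this family assemble into filaments. Otogelin is a large mucin-related protein of the gels over the sensory patches of the ear. Cochlin, the product of COCH, is a secreted protein with an LCCL domain and von Willebrand factor A domains and is abundant in the mammalian inner ear. Changes in the human genes for alpha-tectorin and cochlin cause hearing loss, and mice without beta-tectorin have a disordered tectorial membrane.

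The values are RPKM, in which read numbers are divided by gene length and by library size, so that levels of different genes can be set side by side per length. The libraries held 9262860 to 73918748 alignments, and the second set was the deeper in every region. One read per kilobase was worth 0.0135 to 0.108 RPKM, and the lowest value of any member, that of TECTB in the first-set proximal library, stood for 13.1 reads per kilobase. SOX2, a marker of the prosensory epithelium, lay between 42.9 and 88.5 RPKM in all 6 libraries. OC90, a secreted protein gene of the otic epithelium, lay between 414 and 1153 RPKM, with the distal libraries highest. Differences are given as log2(RPKM + 1), which understates changes of genes near 1 RPKM. They were tested with limma over 12559 genes, 2 libraries per region, both without and with the library set as a replicate block. The threshold was an adjusted p below 0.05. Without the block 0 genes passed in any comparison of regions (508, 111 and 210 genes had an unadjusted p under 0.05 for distal against proximal, middle against proximal and distal against middle). The labels state that separate biological replicates were prepared, and the p-values measure only the spread between these pooled libraries.

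TECTB had the steepest gradient of the 3 genes, with its high end in the distal piece (whether its gradient differs from those of the other genes was not tested). Its level was 37.2 and 22.2 RPKM in the distal libraries (first and second set), 13.4 and 10.8 RPKM in the middle libraries, and 0.903 and 1.65 RPKM in the proximal libraries. The regions did not overlap, and the order distal, middle, proximal held in both sets. Over all genes tested, 8.55% showed this order in both sets. The mean was 29.7 ± 10.6 RPKM in the distal, 12.1 ± 1.85 RPKM in the middle and 1.28 ± 0.530 RPKM in the proximal piece (SD, n = 2 each).

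Between the distal and the proximal piece, TECTB differed 41.2-fold in the first set and 13.4-fold in the second. On the log2 scale the difference was 3.73 (95% interval 2.65 to 4.81 without the block, 2.92 to 4.54 with it), the fourth highest of all genes tested, or 3.63 above the median of all genes. In limma, TECTB missed the threshold without the block (adjusted p = 0.194) and passed it with the block (SE 0.33, adjusted p = 0.0318), where 0.526% of genes passed in either direction and 0.247% passed as higher. Without the filter on low values the blocked adjusted p of TECTB was 0.195, and 0 genes of any kind passed with the block, so each blocked call below is lost there too.

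The rest of the TECTB gradient was less certain in the test than in the values. Between the middle and the proximal piece TECTB differed 14.9-fold in the first set and 6.54-fold in the second, a log2 difference of 2.54 ± 0.33 (SE with the block). This missed the threshold in limma with the block (adjusted p = 0.235), a comparison in which 0 genes passed with the block (484 had an unadjusted p under 0.05). Libraries of the middle piece lay above those of the proximal piece without overlap in 5.76% of genes. Between the distal and the middle piece the ratio was 2.77 and 2.06, a log2 difference of 1.19 ± 0.33, which also missed it (adjusted p = 0.386 with the block), and there too 0 genes passed with the block (960 at an unadjusted p under 0.05).

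TECTA, the partner of TECTB in the tectorial membrane, was abundant in every piece. It reached 121 and 232 RPKM in the distal libraries, 136 and 216 RPKM in the middle libraries, and 101 and 153 RPKM in the proximal libraries. TECTA was above 94.5% of all genes in the library where it ranked lowest and above 98.7% in the one where it ranked highest. The regions overlapped, and the sets stood further apart than the regions, with the second set 1.92-fold above the first in the distal, 1.59-fold in the middle and 1.51-fold in the proximal piece.

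Within each set the proximal library had the least TECTA. The distal library held 1.19-fold and 1.51-fold as much TECTA as the proximal one, and the middle library 1.34-fold and 1.41-fold as much. The log2 difference between distal and proximal was 0.42 (95% interval -0.08 to 0.92 with the block, -0.77 to 1.61 without it), and TECTA missed the threshold in limma (adjusted p = 0.393 with the block). For middle against proximal it was 0.46 (-0.04 to 0.96, adjusted p = 0.888 with the block). The order of distal and middle depended on the set, with a ratio of 0.888 in the first and 1.07 in the second. Their log2 difference was -0.03 (-0.53 to 0.46 with the block), and it turned to 0.03 under quantile normalization. The means were 176 ± 78.4 RPKM in the distal, 176 ± 56.5 RPKM in the middle and 127 ± 36.6 RPKM in the proximal piece (SD, n = 2 each).

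COCH was the least abundant of the 3 genes outside the proximal piece. It measured 3.28 and 4.42 RPKM in the distal libraries, 1.86 and 2.17 RPKM in the middle libraries, and 1.03 and 1.77 RPKM in the proximal libraries. The order distal, middle, proximal held in both sets and no regions overlapped, although the second-set proximal value lay close under the first-set middle value. Even in the distal piece COCH stood above only 46.6% and 44.8% of all genes.

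The distal libraries had 3.19-fold (first set) and 2.50-fold (second set) the proximal level of COCH. The log2 difference between distal and proximal was 1.02 (95% interval 0.47 to 1.58 with the block, 0.03 to 2.02 without it). In limma, COCH had an adjusted p of 0.118 with the block and 1.0 without it, and so missed the threshold in both. It lay above 96.9% of genes tested by the size of this difference. Separate distal and proximal libraries, with the distal ones higher, were found in 13.1% of genes, so that the lack of overlap for 2 of the 3 members is to be read against that share. Between the distal and the middle piece COCH differed 1.77-fold and 2.04-fold, a log2 difference of 0.68 ± 0.22 (adjusted p = 0.507 with the block), with 12.1% of genes higher without overlap. Between the middle and the proximal piece the difference was 0.35 ± 0.22 (adjusted p = 0.888 with the block). The means were 3.85 ± 0.811 RPKM in the distal, 2.01 ± 0.223 RPKM in the middle and 1.40 ± 0.524 RPKM in the proximal piece (SD, n = 2 each).

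**Figure D1:**
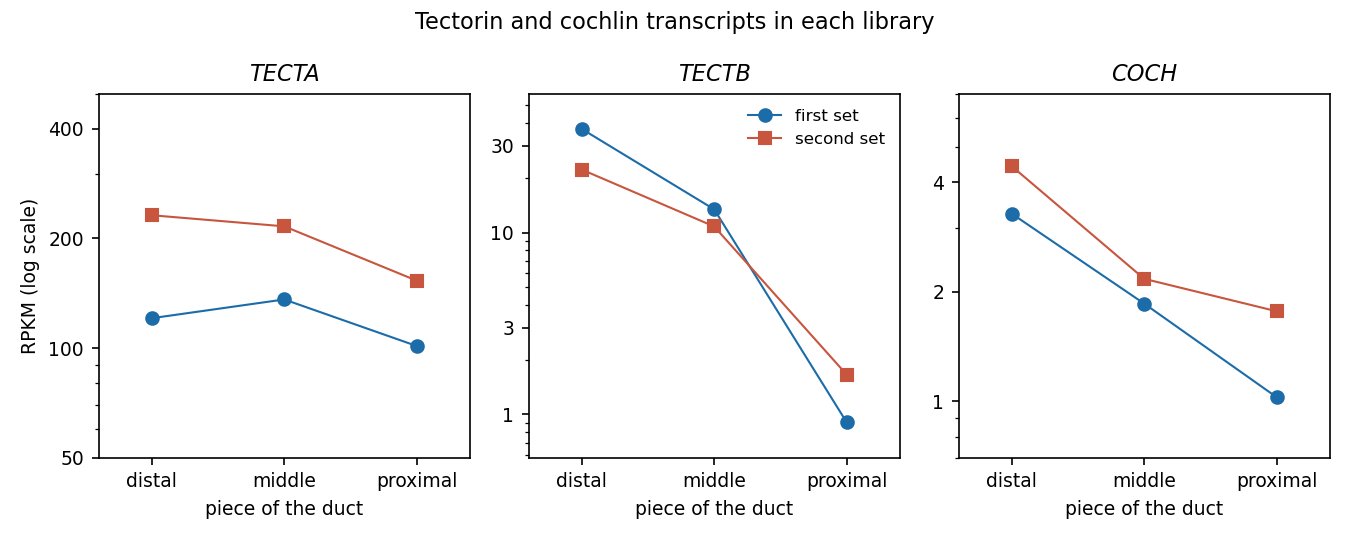
RPKM (log scale) of TECTA, TECTB and COCH in the distal, middle and proximal pieces, with 1 point per library and a line for each set. TECTB spans 0.903 to 37.2 RPKM and COCH 1.03 to 4.42 RPKM with the distal piece highest in both sets, while TECTA lies between 101 and 232 RPKM and differs more between sets than between pieces.

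**Figure D2:**
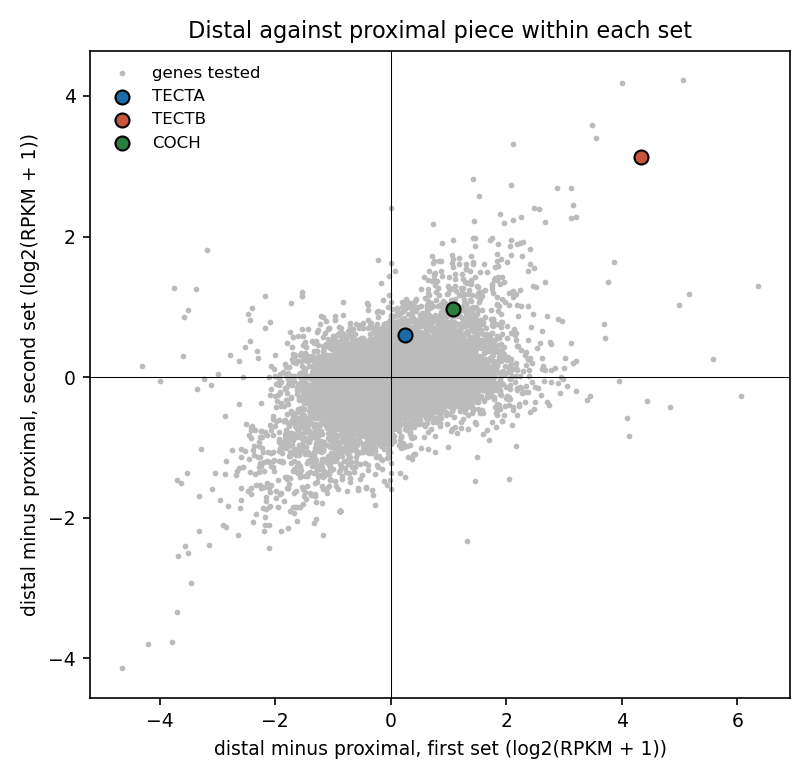
Difference between the distal and the proximal piece on the log2(RPKM + 1) scale in the first set (horizontal) and the second set (vertical) for the 12559 genes tested. TECTB lies at 4.33 and 3.13, near the upper right edge, COCH at 1.08 and 0.97, and TECTA at 0.25 and 0.59 within the bulk of genes.

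Because both tectorins enter the same matrix, their ratio was followed along the duct. There was 3.25 and 10.4 times as much TECTA as TECTB transcript per length in the distal libraries (first and second set), 10.1 and 20.0 times as much in the middle libraries, and 112 and 92.7 times as much in the proximal libraries. TECTB thus amounted to 30.7% and 9.58% of TECTA in the distal libraries and to 0.891% and 1.08% in the proximal libraries. The proximal libraries stood apart from the 4 others in this ratio, and the distal and middle libraries overlapped between sets. TECTB was at 11.3 and 5.02 times the level of COCH in the distal libraries and at 0.879 and 0.935 times its level in the proximal libraries. No test was made on these ratios.

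A piece of the duct mixes several tissues, so a lower level in a piece may mean fewer cells of a type or less RNA per cell, and bulk libraries cannot tell these apart. As a description, levels were also divided by that of SOX2, a marker from the prosensory list, within each library. The ratios do not measure how much prosensory tissue a piece held. The ratio of TECTA to SOX2 was 1.51 and 3.52 in the distal, 1.54 and 3.33 in the middle and 1.15 and 3.57 in the proximal libraries, so the sets stood further apart than the regions. TECTB was at 0.463 and 0.338 of SOX2 in the distal, 0.152 and 0.167 in the middle and 0.0102 and 0.0385 in the proximal libraries. SOX2 varied far less than TECTB, so this order of regions largely repeats that of the TECTB RPKM. The ratio of COCH to SOX2 was 0.0408 and 0.0673 in the distal, 0.0211 and 0.0335 in the middle and 0.0116 and 0.0412 in the proximal libraries, so that in the second set the proximal library no longer lay below the middle one. SOX2 itself had a log2 difference of 0.23 ± 0.25 between distal and proximal (limma with the block, adjusted p = 0.620). Its direction differed between sets, with the proximal library higher in the first set and the distal library higher in the second. The second-set proximal library had the least SOX2 of all libraries, and the COCH RPKM itself still lay below that of the middle library there.

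**Figure D3:**
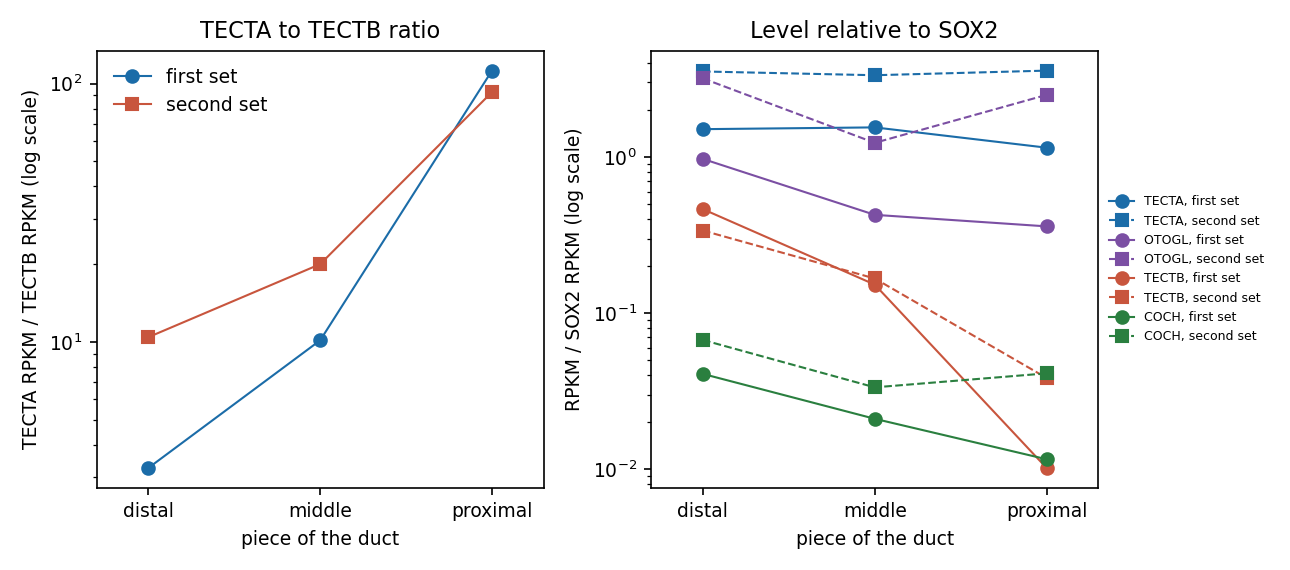
Left, ratio of TECTA to TECTB RPKM (log scale) in each piece, with 1 line per set. Right, RPKM of TECTA, OTOGL, TECTB and COCH divided by that of SOX2 (log scale), with solid lines for the first and dashed lines for the second set. The TECTA to TECTB ratio is 3.25 and 10.4 in the distal libraries and 112 and 92.7 in the proximal libraries.

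Markers of cell types that the pieces could hold also differed between the ends. Of the prosensory and supporting cell markers, 17 of 18 were in the table, and their summed level was 1333 and 1590 RPKM in the distal, 1375 and 1582 RPKM in the middle and 1154 and 1192 RPKM in the proximal libraries. With the block, FGFR3 and LGR5 passed as higher in the distal piece and 0 as lower among the 16 tested, and in the other cell type lists 0 markers passed as higher. As lower, 2 hair cell, 4 neuron, 1 glia and 1 tegmentum marker passed, against 0.247% (higher) and 0.279% (lower) of all genes. Hair cell markers (19 of 21 in the table) summed to 146 and 146 RPKM in the distal, 114 and 115 RPKM in the middle and 459 and 272 RPKM in the proximal libraries. Neuron markers (13 of 16) summed to 521 and 507 RPKM in the distal, 1393 and 1482 RPKM in the middle and 1743 and 1342 RPKM in the proximal libraries. Glia markers (8 of 10) summed to 285 and 370 RPKM in the distal, 546 and 513 RPKM in the middle and 635 and 573 RPKM in the proximal libraries. Red blood cell markers (8 of 15) summed to 1589 and 1234 RPKM in the distal, 2237 and 1466 RPKM in the middle and 5706 and 2776 RPKM in the proximal libraries.

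Markers of the tegmentum and other non-sensory epithelium (11 of 12) summed to 1973 and 1861 RPKM in the distal, 1569 and 1521 RPKM in the middle and 1031 and 1370 RPKM in the proximal libraries. OC90 alone gave 1153 and 967 RPKM of the distal and 414 and 591 RPKM of the proximal sums. By single genes, 6 of the 10 tested had a positive and 3 a negative distal minus proximal difference in both sets, and 5 a positive and 4 a negative middle minus proximal difference. Otic mesenchyme markers (12 of 14) summed to 245 and 349 RPKM in the distal, 159 and 342 RPKM in the middle and 224 and 334 RPKM in the proximal libraries, and cartilage markers (10 of 12) to 819 and 1025, 615 and 824, and 644 and 881 RPKM in the same order of pieces. Most of the cartilage sum was COL2A1, with 727 and 941 RPKM in the distal and 559 and 791 RPKM in the proximal libraries. Of the 12 mesenchyme markers tested, 4 had a positive and 4 a negative distal minus proximal difference in both sets (median log2 difference 0.02). PRRX1, a mesenchymal homeobox gene and the 1 of them with a log2 difference of at least 1 in both sets, was at 28.5 and 24.6 RPKM in the distal and 13.0 and 7.68 RPKM in the proximal libraries. Leukocyte markers (7 of 10) summed to 32.7 to 53.8 RPKM and endothelial markers (8 of 10) to 54.7 to 67.1 RPKM over the 6 libraries. Of the 5 leukocyte markers tested, 4 had a negative and 1 a positive distal minus proximal difference in both sets (median -0.70, against 0.10 over all genes). Of the 8 endothelial markers tested, 2 had a negative and 1 a positive difference (median -0.14). None of the markers found in the table was at 0 in all 6 libraries.

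Over all genes, log2 differences of at least 1 in both sets between distal and proximal were found as higher in 1.16% and as lower in 1.92%. The markers lower by that size in the distal piece included the hair cell genes POU4F3, CALB2, OCM2, ESPNL, LHX3 and CHRNA10, the neuron genes NEUROD1, NEUROD4, GAP43, NTRK3 and CHGA, FABP7, FOXD3 and EDNRB among 4 glia genes of that size, and 6 globin genes (HBZ, HBG1, HBE, HBE1, HBAA and HBM), where reads of near-identical globin or oncomodulin copies may be split between genes. HES5, a Notch target gene, and ATP1B1, a sodium pump subunit gene, were also lower by that size in the distal piece. FGFR3, LGR5, PRRX1 and GATA2, a transcription factor gene of non-sensory epithelium, were the markers higher by that size in the distal piece. Whatever the size, 10 of the 14 hair cell markers tested lay lower than in the proximal piece in both sets and 2 lay higher. The lower and higher counts were 11 and 0 of 12 for neuron, 5 and 0 of 8 for glia and 2 and 8 of 16 for prosensory markers. Over all genes, 24.7% lay lower and 33.3% higher in both sets. MYO7A, the hair cell myosin gene, had 2.15 and 6.60 RPKM in the distal and 1.74 and 8.02 RPKM in the proximal libraries, with no common direction. The part of any of these cell types in the differences of TECTB and COCH was not tested.

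The genes of a wider list of 25 inner ear matrix genes did not share one direction. It holds gel protein genes such as OTOGL and OTOA, but also general matrix genes such as SPARC, COL4A1, NID1 and HAPLN1. Its counts therefore do not describe the gel proteins alone. Of the 25 genes, 21 were in the table and all 21 were tested. CEACAM16, another tectorial membrane gene on the list, is not analysed here. Between the distal and the proximal piece, 8 lay higher and 4 lower in both sets, and the median difference was 0.02, against 0.10 over all genes, of which 33.3% lay higher and 24.7% lower in both sets. With the block, 0 members of this list passed as higher and 2 passed as lower in the distal piece, where 0.279% of all genes passed as lower.

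The 2 genes that passed, though not without the filter on low values, were ZPLD1, which encodes a zona pellucida domain protein of the cupula in mice, and OTOL1, the gene for otolin of the otoconial matrix. ZPLD1 measured 1.63 and 0.793 RPKM in the distal libraries, 3.79 and 2.48 RPKM in the middle libraries, and 10.3 and 6.68 RPKM in the proximal libraries. Its order was the reverse of that of TECTB in both sets, and its distal libraries lay below the proximal ones without overlap, as in 10.3% of genes. ZPLD1 differed by -2.10 ± 0.22 between distal and proximal (limma with the block, adjusted p = 0.0366, and 0.694 without it). OTOL1 measured 0.759 and 0.377 RPKM in the distal, 4.05 and 1.83 RPKM in the middle and 43.2 and 23.3 RPKM in the proximal libraries. This order too was the reverse of that of TECTB in both sets. OTOL1 differed by -4.40 ± 0.25 between distal and proximal (limma with the block, adjusted p = 0.0145, and 0.194 without it).

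OTOGL, which encodes otogelin-like, a relative of otogelin, had 77.9 and 209 RPKM in the distal libraries, 37.5 and 79.7 RPKM in the middle libraries, and 31.8 and 107 RPKM in the proximal libraries. The distal library was highest in each set, but the order of middle and proximal differed between sets. Its distal minus proximal difference of 1.11 ± 0.23 missed the threshold (limma with the block, adjusted p = 0.108). OTOA encodes otoancorin, which attaches such gels to the surface of non-sensory cells. It had 10.1 and 41.7 RPKM in the distal and 2.94 and 18.2 RPKM in the proximal libraries, a difference of 1.32 ± 0.23 (adjusted p = 0.0847). OC90 had 1153 and 967 RPKM in the distal, 821 and 723 RPKM in the middle and 414 and 591 RPKM in the proximal libraries, with no overlap between distal and proximal libraries, and a difference of 1.09 ± 0.28 (adjusted p = 0.157). OTOA was the 1 gene of the list with a log2 difference of at least 1 in both sets as higher, a size reached by 1.16% of genes, and ZPLD1 and OTOL1 were the 2 as lower, a size reached by 1.92%.

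Collagens of cartilage on the same list had smaller differences, none past the threshold among those named here, and their means did not share one sign. COL2A1, the chain of type II collagen, had 727 and 941 RPKM in the distal and 559 and 791 RPKM in the proximal libraries, a difference of 0.31 ± 0.21 (limma with the block, adjusted p = 0.483). COL9A1, a chain of type IX collagen, had a difference of 0.48 ± 0.19 (adjusted p = 0.323), and COL11A1, a chain of type XI collagen, 0.35 ± 0.33 (adjusted p = 0.581) with opposite signs in the sets. COL9A3, another chain of type IX collagen, had a negative mean difference of -0.29 ± 0.24 (limma with the block, adjusted p = 0.537), also with opposite signs in the sets.

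**Figure D4:**
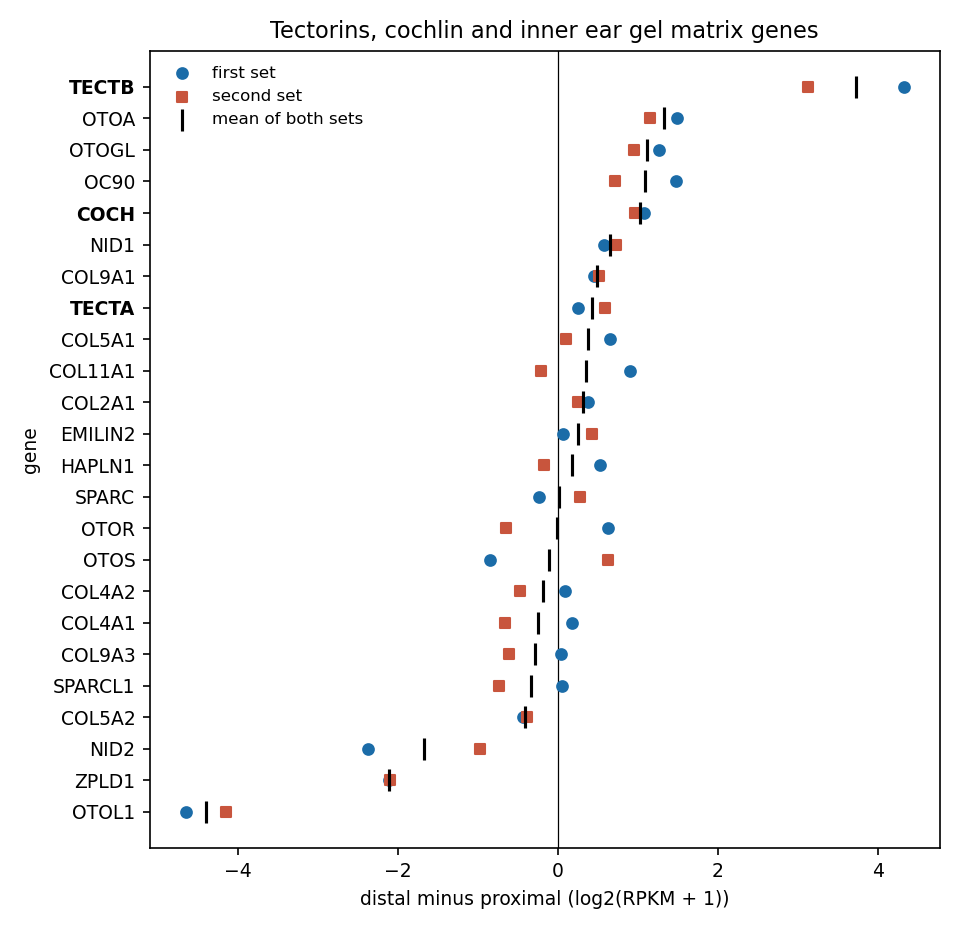
Distal minus proximal difference on the log2(RPKM + 1) scale for TECTB, COCH and TECTA (bold) and the 21 tested genes of the inner ear matrix list, with the first set as circles, the second as squares and their mean as a bar. TECTB is the gene at the upper end with a mean of 3.73, and OTOL1 and ZPLD1 stand at the lower end.

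Many relatives of the members by protein domain lay under the filter on low values. Of 14 genes of the zona pellucida domain family other than the tectorins, 11 were in the table and 6 were tested. In the distal against the proximal piece, 2 lay higher and 4 lower in both sets (median -0.37), and ZPLD1 was the 1 that passed with the block. Of 12 genes with von Willebrand factor D domains, the module of otogelin that alpha-tectorin also carries, 9 were in the table and 5 were tested, with 3 higher and 2 lower in both sets (median 0.74) and 0 past the threshold. VWDE, a gene of this family, had 1.95 and 5.57 RPKM in the distal, 0.102 and 0.320 RPKM in the middle and 0.0238 and 0.104 RPKM in the proximal libraries. It met the filter on low values only through its distal libraries, so its entry to the test depended on the values compared. This also holds for its place among the 3 counted as higher. Its difference of 2.05 ± 0.31 missed the threshold (limma with the block, adjusted p = 0.0706).

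For cochlin, 14 of 14 genes with LCCL or von Willebrand factor A domains were in the table and 9 were tested, with 5 higher and 2 lower in both sets (median 0.37) and 0 past the threshold. VIT, which encodes vitrin, the closest relative of cochlin, was not tested, with at most 0.0648 RPKM in any library. VWA2, which encodes a basement membrane protein, had 2.32 and 3.79 RPKM in the distal and 12.1 and 14.8 RPKM in the proximal libraries, opposite to COCH. Its difference was -1.85 ± 0.31 (limma with the block, adjusted p = 0.0770).

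Genes beside the members on the chromosome were looked up by their order on the RefSeq assembly GRCg7b, which served for names only. TBCEL, a tubulin-regulator gene next to TECTA, overlaps it there, so reads of the shared stretch could be assigned to either. TBCEL measured 4.74 and 15.4 RPKM in the distal and 2.94 and 11.8 RPKM in the proximal libraries, far below TECTA. The protein-coding neighbours of TECTB were GPAM and ACSL5. GPAM, a glycerolipid synthesis gene, had 3.82 and 8.47 RPKM in the distal and 3.09 and 11.8 RPKM in the proximal libraries, and ACSL5, a fatty acid activating enzyme gene, had at most 0.214 RPKM in any library. An annotated RNA without a protein product also overlaps TECTB on that assembly. The neighbours of COCH, SCFD1 and STRN3, had differences of 0.60 ± 0.35 and 0.29 ± 0.24 between distal and proximal (limma with the block, adjusted p = 0.446 and 0.531).

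The genes with the pattern most like that of TECTB and COCH were ranked by Pearson correlation over the 6 libraries, after the mean of its set was taken from each value, among 648 named genes whose regional means spanned at least 1 on the log2 scale. The libraries are the same for all genes and hold few independent points, so high correlations are common and are given as a description. For TECTB the closest were EFEMP1, a fibulin matrix gene (r = 0.997), PFKFB3, a regulator of glycolysis (0.995), FZD10, a Wnt receptor gene (0.995), EFNB2, an ephrin ligand gene (0.994), and LGR5, an R-spondin receptor gene (0.994). For COCH they were TRPM3, a cation channel gene (0.999), ITGB6, an integrin subunit gene (0.997), OLFM4, a secreted glycoprotein gene (0.997), THBS2, a thrombospondin matrix gene (0.995), and WNT5A, a Wnt ligand gene (0.994). The 2 lists share no gene. TECTA spanned 0.46 between its regional means and was not ranked.

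Ranked instead by the root mean square difference of the same centred values, which also takes the size of the gradient into account, the genes closest to TECTB were FGFR3 (0.448 log2 units), APOA1 (0.462), RGR (0.540), NOG (0.555) and CDH13 (0.569), and 0 of these 5 were shared with the ranking by correlation. FGFR3 measured 35.1 and 86.5 RPKM in the distal, 25.0 and 60.3 RPKM in the middle and 3.90 and 12.5 RPKM in the proximal libraries. THBS2 was closest to COCH by this measure (0.0472 log2 units) and was the 1 gene of 5 shared with its ranking by correlation. It measured 7.10 and 14.4 RPKM in the distal, 3.89 and 7.79 RPKM in the middle and 2.68 and 7.07 RPKM in the proximal libraries.

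**Figure D5:**
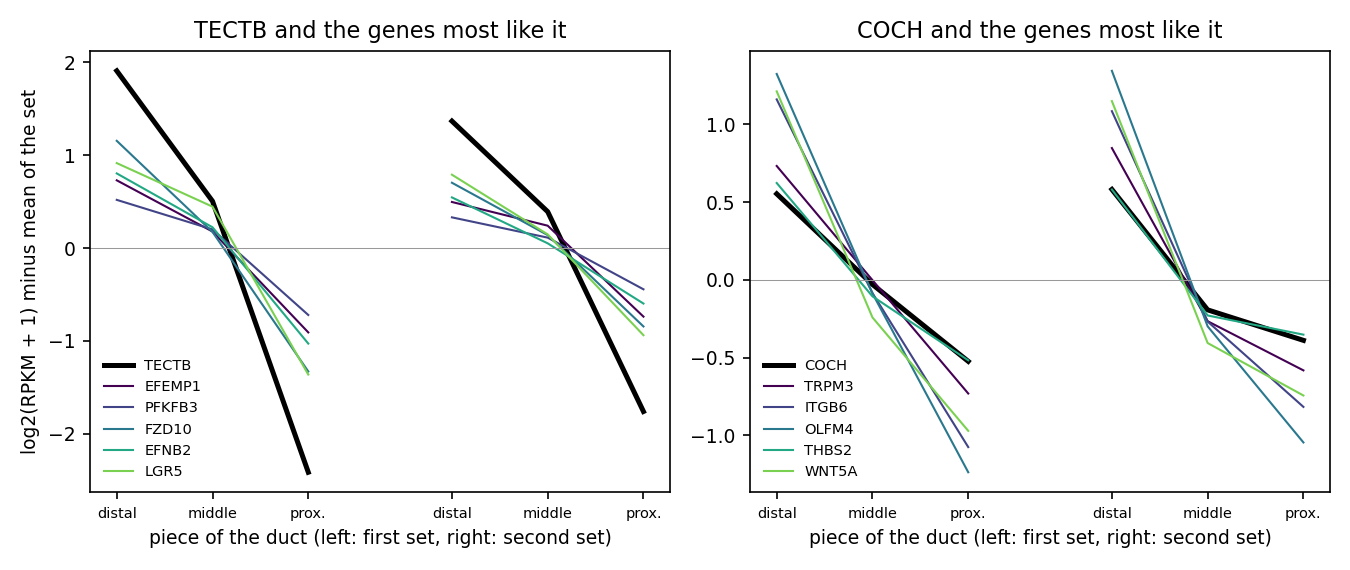
Centred log2(RPKM + 1) values of TECTB (left) and COCH (right, black lines) and of the 5 genes with the highest correlation to each, by piece, with the first set on the left and the second on the right of each panel. The genes share the order of the pieces with TECTB or COCH, and the gradient of TECTB is steeper than those of its 5 genes in both sets.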

How the data were processed

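RNA was measured in 6 libraries of pooled duct pieces (2 for each of 3 regions). The authors deposited RPKM values per gene with the number of alignments per library, which was kept out of all tests. TopHat 1.4.0 and Partek 6.6 are named in the submitters' processing notes. No source used here states the genome build, annotation or strand use, so no positions are printed. Column names give the region and mark the second set by a suffix, but do not give the sample record. Columns without the suffix were taken as the first set. Values were tested as log2(RPKM + 1) with limma 3.58.1 in R 4.3.3 (region as a factor, empirical Bayes with trend, two-sided, Benjamini-Hochberg over 12559 genes at 1 RPKM or more in at least 2 libraries). The code was tested on simulated data. The planned main fit had no block, and the blocked fit was an alternative. The set differences of the regions correlated across genes at 0.885 (distal, middle), 0.655 (distal, proximal) and 0.659 (middle, proximal), so the set was used as the block in that alternative. These correlations show a difference between the sets that the regions share, and the sets also differ in depth. They do not show that the pieces of a set came from the same ducts. Most differences are printed from the blocked fit alone. For the members, and for OTOGL, OTOA and OC90, its intervals were narrower than those of the unblocked fit. Residual degrees of freedom were 3 without and 2 with the block. SE values are from the blocked fit.

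Named genes were the members, the 5 most alike per member, list genes differing by at least 1 on the log2 scale in both sets between distal and proximal, and genes fixed for their role. Not every glia gene of that size is named. OC90, VIT, COL9A3 and the neighbouring genes were added as context after their values were seen. Members and lists were chosen with earlier results of these data known. Alternatives were a block, pseudocount, filter, normalization, trend and leaving out each library.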

Additional observations from a re-analysis of the deposited data

How the results depend on the processing

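For each of the 9 differences (3 genes, 3 comparisons) the alternatives were a replicate block, a pseudocount of 0.1, no filter on low values, quantile normalization, median scaling, no trend, and each library left out. The direction held throughout for TECTB and COCH. Median scaling moved the distal minus proximal median of all genes to -0.04, against 0.10 as deposited, and the members with it. TECTB distal minus proximal passed in limma with the replicate block (3.73, adjusted p = 0.0318), with the block and quantile normalization (3.62, adjusted p = 0.00855) and with the block and a pseudocount of 0.1 (4.44, adjusted p = 0.0434), but not with the block and no filter (adjusted p = 0.195) or in any alternative without the block. No other blocked fit on all 6 libraries changed a member's call. Genes past the threshold between distal and proximal numbered 66 with the block, 257 with quantile normalization added, 36 with the pseudocount of 0.1 and 0 with no filter on low values (2017 at an unadjusted p under 0.05, smallest adjusted p = 0.195), so that every blocked call named in the report was lost there, and between middle and proximal 3 with the block and quantile normalization. TECTA distal minus middle turned to 0.0300 under quantile normalization, with and without the block. With 1 library left out and no block, TECTA distal minus proximal ranged from -0.044 (without the second-set distal library) to 0.89 and TECTA distal minus middle from -0.50 to 0.43. TECTA and COCH middle minus proximal ranged from 0.13 to 0.79 and from 0.12 to 0.57. TECTB distal minus proximal ranged from 3.37 to 4.09, COCH from 0.80 to 1.25, and 0 to 3 genes passed between distal and proximal. Leaving out 1 library with the block was added after seeing the data and leaves 1 residual degree of freedom. TECTB then ranged from 3.24 to 4.22 between distal and proximal, from 2.05 to 3.03 between middle and proximal and from 0.78 to 1.60 between distal and middle, past the threshold in 6, 6 and 2 of the 6 fits. COCH distal minus proximal ranged from 0.92 to 1.13, past the threshold only without the second-set proximal library (1.13, adjusted p = 0.00786 in limma). Genes past the threshold then numbered 118 to 6994, 19 to 5595 and 16 to 1231 for distal against proximal, middle against proximal and distal against middle, the highest counts of the first and second comparison without the second-set proximal library and of the third without the first-set proximal library. The cause was not tested.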
